A study of Homo sapiens with 15 samples.

Results

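The 10 genes described here encode actin-binding and contractile proteins that are typical of smooth muscle and of stress fibres: ACTA2, TAGLN, CNN1, MYL9, TPM1, TPM2, CALD1, ZYX, VCL and TNS3. They were taken as a list of symbols, chosen with earlier results of these data known, and matched to the gene identifiers of the count table. All 10 were found among its 57820 genes and passed the filter on low counts. Counts called among the 10, set beside shares of all genes, are therefore descriptions and no independent test of the list. Expression was measured by RNA-seq in A673 cells, a single Ewing sarcoma line, with 3 libraries in each of 5 conditions. All cells carried 1 retroviral shRNA from day 1 and 1 retroviral vector from day 5, and were kept in 2 µg/mL puromycin and 400 µg/mL hygromycin B until day 16. In iLuc the shRNA was directed at luciferase and the vector was empty, so these cells kept their endogenous fusion protein EWS/FLI. In iEF the shRNA was directed at EWS/FLI and the vector was again empty. WT-EF, del22 and DAF carried the shRNA of iEF and a FLAG-tagged cDNA of wild-type EWS/FLI, of a form without nearly all of the EWS domain (del22), or of a form with tyrosine-to-alanine changes in the amino-terminal part of that domain (DAF). Since the labels do not say whether numbered libraries came from separate cultures, p-values measure only the spread between these samples, and in bulk RNA fewer cells expressing a gene and less RNA per cell cannot be told apart.

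EWS/FLI joins the low-complexity EWS domain to the ETS DNA-binding domain of FLI1 and both activates and represses genes in Ewing sarcoma. In contractile cells, actin filaments made with smooth muscle alpha-actin slide against myosin, and tropomyosin, caldesmon and calponin along the filament set how readily myosin can bind. Filaments end at focal adhesions, where vinculin, zyxin and tensins tie them to integrins. Many of these genes are textbook targets of serum response factor (SRF), which binds the CArG box and works with myocardin or the myocardin-related factors.

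Total counts per library ran from 28659475 to 41859880. FLI1, whose reads come from the fusion transcript and from the cDNAs as well as from any wild-type allele, was at 48.0, 47.8 and 52.4 CPM (the count scaled to the library's total with TMM factors) in iLuc and at 12.9, 15.5 and 15.3 CPM in iEF and was thus lower where the labels place the knockdown. In WT-EF it was at 16.0, 18.0 and 18.7 CPM, and it did not differ from iEF past the threshold (log2 fold change 0.27, edgeR's quasi-likelihood test, Benjamini-Hochberg adjusted p = 0.0538). In del22 it was at 24.4, 32.9 and 36.2 CPM and in DAF at 22.1, 23.6 and 27.3 CPM, both higher than in iEF (log2 fold changes 1.09 and 0.74, edgeR adjusted p = 0.000446 and 0.000335). WT-EF was also lower than DAF (-0.47, edgeR adjusted p = 0.00264), so the constructs compared below differed in FLI1 level, and its part in their differences was not tested. This level cannot tell cDNA transcripts from remaining endogenous ones, and it does not measure protein. The paper reports a western blot in which the tagged constructs were seen after knockdown. Of the Ewing sarcoma markers, NR0B1, STEAP1, NKX2-2 and CCND1 were detected in every library, whereas CD99, a defining surface marker of the tumour, had at most 3 counts in any library. Since the annotation used for counting is not given, this does not show that CD99 was not expressed.

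The 10 genes lie on 7 chromosomes. In GRCh37, with the GENCODE annotation lifted to that build, ACTA2 (ENSG00000107796) spans chr10:90694831-90751096, TAGLN (ENSG00000149591) chr11:117070086-117078180, CNN1 (ENSG00000130176) chr19:11649582-11661138 and MYL9 (ENSG00000101335) chr20:35169900-35179850. TPM1 (ENSG00000140416) spans chr15:63334819-63364114, TPM2 (ENSG00000198467) chr9:35681989-35690053 and CALD1 (ENSG00000122786) chr7:134429003-134655480. The adhesion genes are ZYX (ENSG00000159840) at chr7:143078388-143088204, VCL (ENSG00000035403) at chr10:75754951-75881121 and TNS3 (ENSG00000136205) at chr7:47314752-47622156. Exons of 5 of the 10 genes overlap exons of a gene on the opposite strand, and without a stated strand setting reads from the overlapped part cannot be assigned with certainty. PCSK7 covers 34.1% of the merged exon bases of TAGLN, the antisense gene ACTA2-AS1 covers 29.1% of those of ACTA2, and TPM1-AS covers 18.0% of those of TPM1. AP3M1 covers 11.1% of VCL and EPHA1 covers 2.51% of ZYX. FAS, also on the opposite strand, covers 6.75% of ACTA2 and held 956 to 2315 counts, against 706 to 4522 for ACTA2 itself. ACTA2-AS1 held between 11 and 42 counts in any library and PCSK7 between 797 and 2272.

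Promoter windows were read from the RefSeq table (GRCh38.p14), which holds 250 bases before and 50 bases after an annotated start. It had 15 windows for 8 of the 10 genes, and none was listed for TAGLN or MYL9. The strict CArG box (CC, then 6 bases of A or T, then GG) was in none of the 15 windows and in 1.29% of the 35116 windows of all genes. A looser form with 1 G or C among those 6 bases was searched after the strict form gave no match. It was found in 3 of the 15 windows, of ACTA2 (2 sites), CALD1 and ZYX. The share was 6.94% of all windows and 8.46% of all genes with a window. CATTCC, the M-CAT site of TEAD factors, was in 4 of the 15 windows, of ACTA2, CALD1 and VCL (14% of all windows, 16.7% of all genes). CCGGAAGT, an ETS-type site with a GGAA core, was in 1, that of TPM1 (4.14% of all windows, 4.95% of all genes). GGAAGGAA, 2 tandem GGAA repeats, was in none (3.67% of all windows). All motifs were searched on both strands, none of the matches overlapped another, and a match is a description of the sequence and no evidence of binding. The 250 bases before the start are shown for 4 genes, ACTA2 and ZYX with the looser CArG form, TPM1 with the ETS site, and CNN1, the gene called lower in DAF cells, which held none of the motifs. Capitals mark the matches. In ACTA2 (window chr10:88952724-88953023, minus strand) they are, in order, CATTCC read on the opposite strand at -183 and the looser CArG form at -121 and -71 from the start. In ZYX (chr7:143381095-143381394, plus strand) the looser CArG form lies at -106, and in TPM1 (chr15:63048239-63048538, plus strand) the ETS site lies at -77, read on the opposite strand. The CNN1 window is chr19:11538601-11538900, plus strand.
ACTA2: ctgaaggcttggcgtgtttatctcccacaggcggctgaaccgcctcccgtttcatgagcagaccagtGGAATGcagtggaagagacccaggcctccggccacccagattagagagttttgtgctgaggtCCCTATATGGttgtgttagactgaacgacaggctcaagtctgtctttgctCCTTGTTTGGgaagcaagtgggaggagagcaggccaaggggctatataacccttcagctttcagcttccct
ZYX: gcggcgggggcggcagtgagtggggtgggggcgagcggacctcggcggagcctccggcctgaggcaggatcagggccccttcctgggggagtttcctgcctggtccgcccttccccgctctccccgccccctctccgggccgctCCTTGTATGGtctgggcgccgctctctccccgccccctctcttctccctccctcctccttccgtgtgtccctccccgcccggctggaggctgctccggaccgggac
TPM1: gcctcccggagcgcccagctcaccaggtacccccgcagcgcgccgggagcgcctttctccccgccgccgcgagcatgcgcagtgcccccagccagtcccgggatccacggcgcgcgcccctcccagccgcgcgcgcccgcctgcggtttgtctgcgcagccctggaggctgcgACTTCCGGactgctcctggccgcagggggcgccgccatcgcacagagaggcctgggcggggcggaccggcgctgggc
CNN1: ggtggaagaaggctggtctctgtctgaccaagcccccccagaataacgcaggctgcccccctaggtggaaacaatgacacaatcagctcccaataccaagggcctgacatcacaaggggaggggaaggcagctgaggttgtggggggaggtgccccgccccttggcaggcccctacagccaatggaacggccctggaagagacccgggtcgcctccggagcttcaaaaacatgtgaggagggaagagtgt

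Abundance differed by more than 2 orders of magnitude among the 10 genes. Per kilobase of merged exon, the mean levels in iEF cells were highest for VCL (86.8 CPM per kb), CALD1 (67.3 CPM per kb), TPM1 (41.4 CPM per kb) and TPM2 (35.9 CPM per kb). TAGLN (21.5 CPM per kb), ACTA2 (13.7 CPM per kb) and ZYX (12.9 CPM per kb) lay in the middle, while CNN1 (1.48 CPM per kb), MYL9 (0.307 CPM per kb) and TNS3 (0.134 CPM per kb) were low. VCL, CALD1 and TPM1 together made up between 81.5% of the summed CPM of the 10 genes in DAF and 86.2% in iLuc. The 10 genes took 0.203% to 0.249% of all counts in the iEF libraries and 0.0521% to 0.0669% in the iLuc libraries. MYL9, CNN1 and TNS3 rest on few reads: MYL9 had at most 44 counts in any library.

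**Figure D1:**
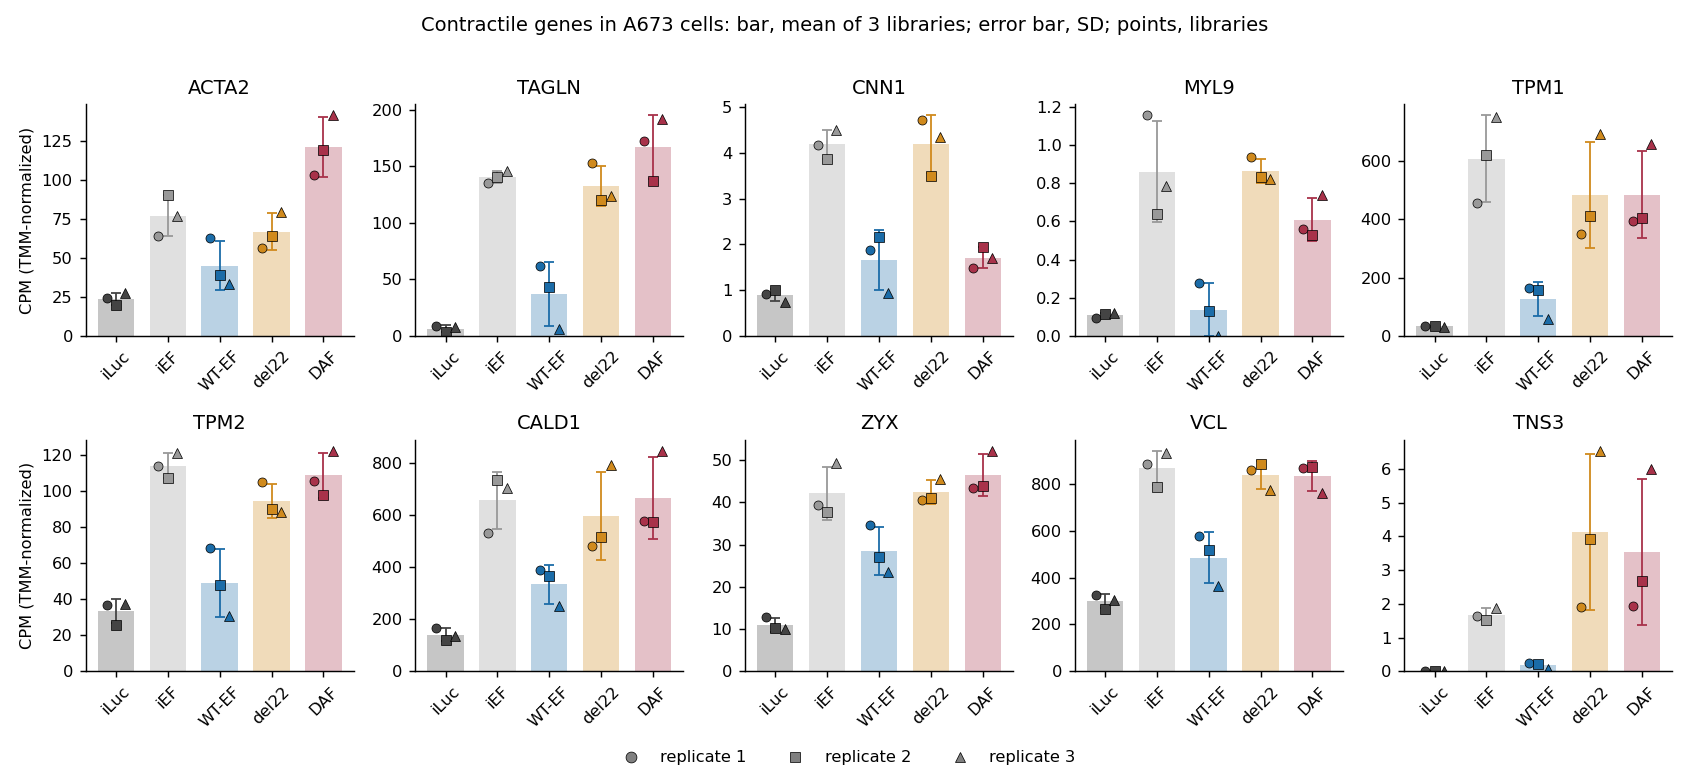
Level of each of the 10 contractile genes in CPM (each panel has its own axis from 0) in the 5 conditions. Bars show the mean of 3 libraries, error bars the SD, and circles, squares and triangles replicates 1, 2 and 3. All 3 iLuc libraries sit below all 3 iEF libraries for every gene, and the WT-EF libraries lie below iEF with replicate 3 lowest in all 10 genes.

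Cells with and without endogenous EWS/FLI were compared first, as iLuc against iEF. All 10 genes were lower where EWS/FLI was present, each by more than 2-fold, and in all 10 the 3 iLuc libraries lay below the 3 iEF libraries. Of all 28793 genes tested, 22.1% were called lower in iLuc at an adjusted p under 0.05, and 13.7% were also past 2-fold. The share of all genes whose libraries did not overlap was not computed, here or below. Statements on overlap therefore describe single genes, and their counts have no background to be read against. The median log2 fold change was -2.23 over the 10 genes and 0.04 over all genes tested. The plot of the levels by library shows the same separation for abundant and for scarce members.

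The largest fold among genes with reads in both conditions was that of TAGLN, which encodes transgelin, an actin-crosslinking protein of the calponin family and an early smooth muscle marker. It was at 8.86, 3.17 and 7.43 CPM in iLuc and at 135, 141 and 146 CPM in iEF, a log2 fold change of -4.49 (SE 0.56) or a level 22.5-fold lower in iLuc (edgeR quasi-likelihood test, Benjamini-Hochberg adjusted p = 1.18e-05). The iLuc libraries differed among themselves by up to 2.80-fold, far less than the gap between the conditions. ACTA2, the smooth muscle alpha-actin itself, was at 24.6, 19.8 and 27.4 CPM in iLuc and at 64.1, 90.3 and 77.1 CPM in iEF. Its level was 3.24-fold lower in iLuc (log2 fold change -1.70, SE 0.22, edgeR adjusted p = 2.04e-05). CNN1, calponin, which binds actin and slows the myosin ATPase, was at 0.917, 1.01 and 0.746 CPM in iLuc against 4.18, 3.88 and 4.51 CPM in iEF, 4.73-fold lower (log2 fold change -2.24, SE 0.27, edgeR adjusted p = 8.87e-06). The 3 iLuc libraries of CNN1 differed by at most 1.35-fold, although they held only 25 to 36 counts. MYL9, the regulatory myosin light chain whose phosphorylation starts contraction, had 3, 4 and 4 counts in iLuc and 44, 19 and 27 counts in iEF. Its log2 fold change of -2.93 had an SE of 0.55 (edgeR adjusted p = 0.000509), one of the widest of the 10.

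The tropomyosins, which lie along the actin filament, did not fall by the same amount. TPM1 was at 34.8, 34.9 and 31.9 CPM in iLuc and at 455, 621 and 750 CPM in iEF, 17.7-fold lower in iLuc (log2 fold change -4.14, SE 0.38, edgeR adjusted p = 5.74e-07). TPM2 was at 37.05, 25.6 and 37.5 CPM in iLuc and at 114, 108 and 122 CPM in iEF, 3.46-fold lower (log2 fold change -1.79, SE 0.20, edgeR adjusted p = 4.10e-06). The 95% intervals of the log2 fold change, -4.96 to -3.33 for TPM1 and -2.22 to -1.36 for TPM2, did not overlap. CALD1, caldesmon, which blocks myosin from actin until it is phosphorylated or binds calmodulin, was at 168, 119.6 and 134 CPM in iLuc against 532, 735 and 707 CPM in iEF. That is a log2 fold change of -2.22 (SE 0.23, edgeR adjusted p = 1.82e-06).

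Among the genes of focal adhesions, VCL, vinculin, which links talin to actin, had the smallest change of the 10. It was at 325, 266 and 306 CPM in iLuc and at 883, 787 and 931 CPM in iEF, 2.91-fold lower (log2 fold change -1.54, SE 0.13, edgeR adjusted p = 2.57e-07). ZYX, zyxin, a LIM protein that is recruited to strained stress fibres, was at 12.9, 10.2 and 10.1 CPM in iLuc and at 39.4, 37.6 and 49.3 CPM in iEF (log2 fold change -1.93, SE 0.15, edgeR adjusted p = 1.21e-07). TNS3, a tensin that binds integrin tails, had no count in any iLuc library and 62, 45 and 65 counts in iEF. Against a floor of 3 counts per library, its level was at least 19.0-fold lower in iLuc, and this bound covers counting error only. The genes with the smallest changes, VCL and ACTA2, were thus still separated from iEF by more than the spread of either group.

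**Figure D2:**
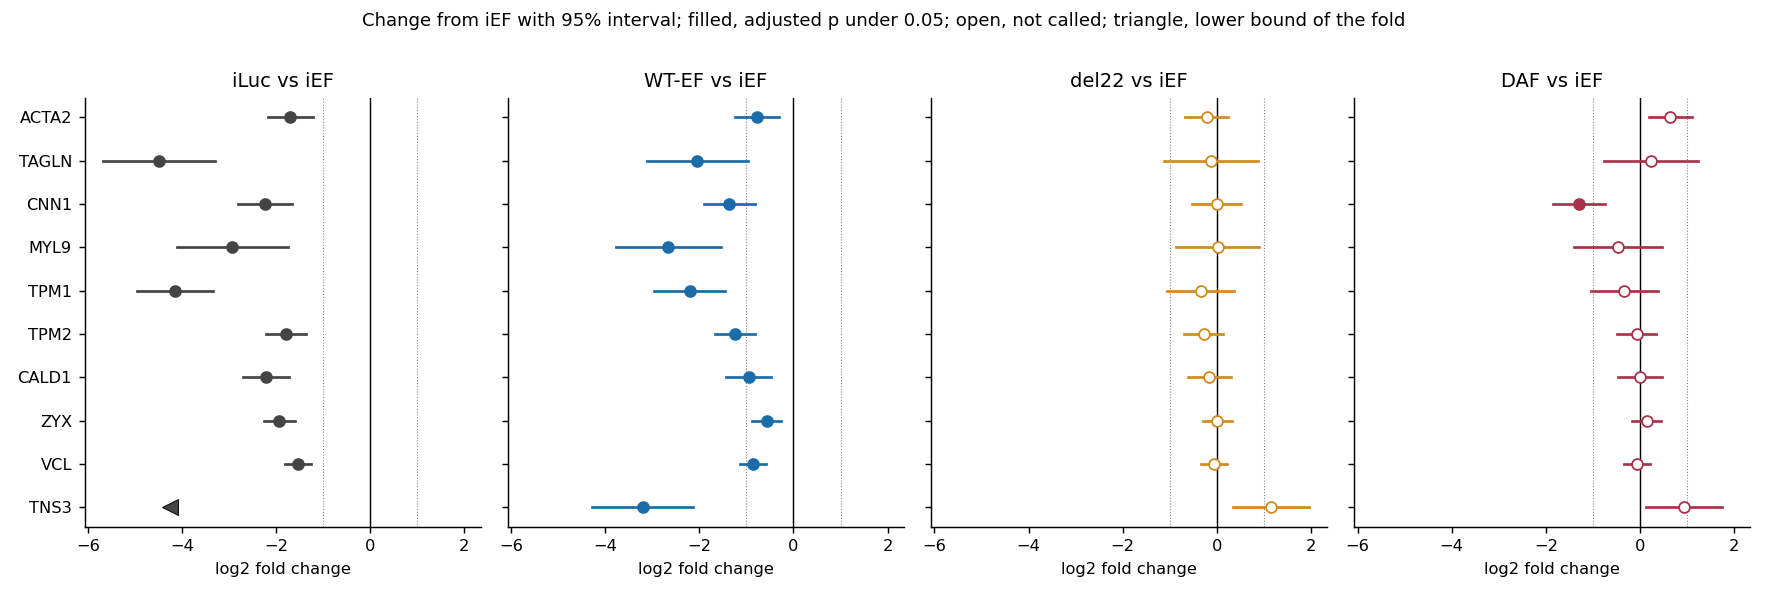
Log2 fold change of each gene in iLuc, WT-EF, del22 and DAF relative to the same 3 iEF libraries, with 95% intervals from the edgeR fit. Filled points have an adjusted p under 0.05, open points do not, dotted lines mark a 2-fold change, and the triangle is the lower bound of the fold for TNS3, which had no count in iLuc. All points are filled and left of 0 for iLuc and WT-EF, none is filled for del22, and CNN1 is the filled point for DAF.

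Wild-type EWS/FLI was then compared with the empty vector in depleted cells. All 10 genes were lower in WT-EF than in iEF, 6 of them by more than 2-fold, and the 3 WT-EF libraries lay below the 3 iEF libraries in all 10. The background was 17.0% of all genes tested called lower, and 8.67% called lower by more than 2-fold, while 12.9% were called higher, none of them among the 10. The median log2 fold change was -1.30 over the 10 genes and -0.01 over all genes. WT-EF and iLuc were each compared with the same iEF libraries, so the direct comparison of the pair is given next.

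TAGLN varied widely among the WT-EF libraries. It was at 61.5, 43.0 and 6.26 CPM in WT-EF, a log2 fold change of -2.04 from iEF (SE 0.50, edgeR adjusted p = 0.00585), and the third library was below 2 of the 3 iLuc libraries. TPM1 was at 164, 158 and 58.3 CPM (log2 fold change -2.21, SE 0.35, edgeR adjusted p = 0.000217). MYL9 had 10, 5 and 0 counts (log2 fold change -2.66, SE 0.52, edgeR adjusted p = 0.00119). In each of these genes replicate 3 stood lowest, and so it did in all 10. Without that library the log2 fold change was -1.39 for TAGLN, -2.03 for MYL9 and -2.52 for TNS3, each called and each over 1.5-fold smaller, while without WT-EF replicate 1 that of MYL9 was -3.52. TNS3 had 9, 8 and 3 counts in WT-EF, 9.20-fold below iEF (log2 fold change -3.20, SE 0.49, edgeR adjusted p = 0.0003). TPM2 was at 68.7, 48.2 and 30.8 CPM (log2 fold change -1.24, SE 0.20, edgeR adjusted p = 0.00022) and CNN1 at 1.88, 2.17 and 0.932 CPM (log2 fold change -1.36, SE 0.25, edgeR adjusted p = 0.000823).

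The remaining 4 genes fell by less than 2-fold with wild-type rescue. CALD1 was at 391, 365 and 250.2 CPM (log2 fold change -0.96, SE 0.22, edgeR adjusted p = 0.00397) and VCL at 576, 517 and 363 CPM (log2 fold change -0.85, SE 0.13, edgeR adjusted p = 0.000134). ACTA2 was at 63.0, 39.1 and 33.3 CPM (log2 fold change -0.77, SE 0.22, edgeR adjusted p = 0.0145), with its highest library just under the lowest of iEF at 64.1 CPM. ZYX was at 34.7, 27.2 and 23.6 CPM (log2 fold change -0.56, SE 0.14, edgeR adjusted p = 0.00792). WT-EF replicate 3 decided part of these calls: without that library 9 of the 10 genes were still called lower, and ACTA2 was not (log2 fold change -0.49, edgeR adjusted p = 0.0756). FLI1 was at 18.7 CPM in that library and at 16.0 and 18.0 CPM in the other WT-EF libraries, and its part in the spread was not tested. ACTA2 also missed the threshold without iEF replicate 2 or WT-EF replicate 2 (edgeR adjusted p = 0.0993 and 0.0784), and ZYX without iEF replicate 3 (edgeR adjusted p = 0.0528). Without replicate 2 of all conditions ACTA2, CALD1 and ZYX were lost and 7 genes were called, and without replicate 3 of all conditions ZYX was lost.

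**Figure D3:**
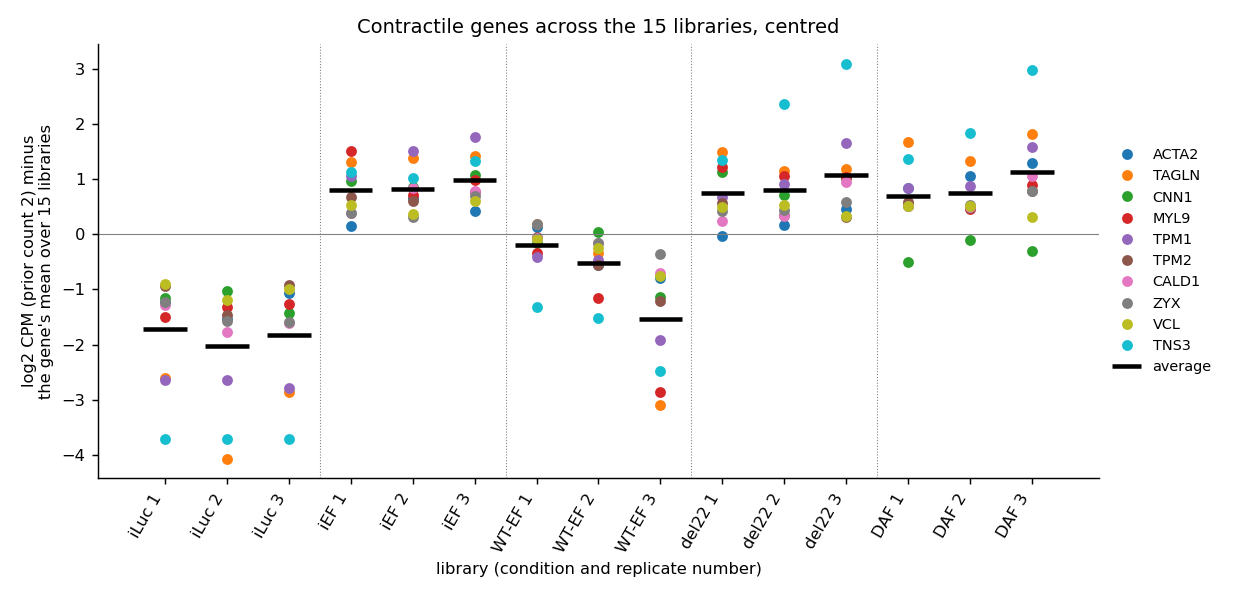
Level of each of the 10 genes in each of the 15 libraries, as log2 CPM (prior count of 2) minus the gene's mean over all libraries, with the average over the 10 genes as a black bar. The average is between -2.03 and -1.72 in iLuc and between 0.69 and 1.12 in the iEF, del22 and DAF libraries, and the WT-EF libraries lie between them at -0.19, -0.51 and -1.53.

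How far wild-type rescue fell short of undepleted cells was tested directly. In WT-EF, 8 of the 10 genes were higher than in iLuc (background 10.7% of all genes tested), 5 of them by more than 2-fold (background 5.22%), and the fitted log2 fold change was above 0 for all 10. None was lower (background 9.03%). The excess was 5.47-fold for TAGLN (log2 fold change 2.45, SE 0.53, edgeR adjusted p = 0.00471), 3.82-fold for TPM1 (1.93, SE 0.35, edgeR adjusted p = 0.00132), 2.58-fold for ZYX (1.37, SE 0.15, edgeR adjusted p = 2.93e-05) and 2.41-fold for CALD1 (1.27, SE 0.22, edgeR adjusted p = 0.00107). ACTA2, CNN1 and VCL were higher by less than 2-fold, with log2 fold changes of 0.93, 0.88 and 0.69 (edgeR adjusted p = 0.00831, 0.037 and 0.00167). The mean of TNS3 in WT-EF was at least 2.04-fold above the floor of iLuc, a bound that allows for counting error in iLuc alone. That mean rests on 9, 8 and 3 counts, and replicate 3, at 0.0799 CPM, lay below the floor of 0.0885 CPM. The median over the 10 genes was 1.10, or 0.98 with TNS3 set at its bound. Without WT-EF replicate 3 the log2 fold change of TAGLN was 3.13, and without replicate 1 or 2 of all conditions it was 2.16 or 1.83 and missed the threshold (edgeR adjusted p = 0.112 and 0.16).

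MYL9 and TPM2 did not pass the threshold. The log2 fold change of MYL9 was 0.27 with a 95% interval from -1.21 to 1.76 (edgeR adjusted p = 0.845), which its few reads leave wide, and without WT-EF replicate 1 the value was -0.56. For TPM2 the value was 0.55 with an interval from 0.13 to 0.97 (edgeR adjusted p = 0.065). TPM2 was called higher in 8 of 25 alternatives, with an adjusted p of 0.0245 in DESeq2, 0.048 with DESeq2's size factors in edgeR and 0.0487 in limma on the batch-adjusted counts, and over all 25 the adjusted p lay between 1.28e-05 and 0.496. The groups did not overlap in 6 genes (share of all genes not computed), ACTA2, TPM1, CALD1, ZYX, VCL and TNS3. In the other 4 WT-EF replicate 3 lay within or below the iLuc range. With that library left out, 9 genes were called higher and TPM2 joined them (edgeR adjusted p = 9.18e-05). The count was less stable to whole replicate sets: TPM1, CALD1 and ZYX were called without replicate 1 of all conditions, and ZYX alone without replicate 2. CNN1 missed the threshold without any one of the 3 iLuc libraries or of WT-EF replicates 1 and 2.

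The del22 construct, which keeps the DNA-binding domain of FLI1 but not the EWS domain, was compared with iEF in the same way. None of the 10 genes was called in either direction by edgeR, by DESeq2 or by limma on the batch-adjusted counts, and 1, TNS3, had an unadjusted p under 0.05. The background was low as well, with 0.472% of all genes tested called higher and 0.830% called lower. The median log2 fold change was -0.09 over the 10 genes. Intervals were narrowest for VCL, from -0.33 to 0.22 on the log2 scale, and for ZYX, from -0.29 to 0.32, so changes of 2-fold lay outside them. For TAGLN the interval, from -1.12 to 0.89, still held a 2-fold fall.

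Values for del22 overlapped those of iEF in 8 of the 10 genes. ACTA2 was at 56.6, 64.3 and 79.5 CPM, TAGLN at 153, 120.1 and 124 CPM, CNN1 at 4.72, 3.49 and 4.36 CPM and MYL9 at 0.938, 0.834 and 0.822 CPM. CALD1 was at 483, 516 and 794 CPM, TPM1 at 349.6, 412 and 692 CPM, ZYX at 40.5, 41.1 and 45.6 CPM and VCL at 858, 885 and 773 CPM. TPM2 was below iEF in all 3 libraries, at 105, 90.0 and 88.5 CPM, but its log2 fold change of -0.28 (SE 0.19) did not pass (edgeR adjusted p = 0.598). TNS3 was above iEF in all 3, at 1.90, 3.94 and 6.54 CPM against 1.63, 1.52 and 1.89 CPM, with a log2 fold change of 1.16 (SE 0.37, edgeR adjusted p = 0.167). The del22 libraries of TNS3 differed from each other by 3.43-fold, more than the fitted difference of 2.23-fold between the conditions. TNS3 was called higher without WT-EF replicate 3 (edgeR adjusted p = 0.0486), and TPM1 was called lower without replicate 3 of all conditions (log2 fold change -0.48, edgeR adjusted p = 0.0377).

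With DAF, the tyrosine mutant, 1 of the 10 genes was called. CNN1 was lower than in iEF (background 6.19% of all genes tested), no gene of the 10 was called higher (background 5.00%), and 3 genes, ACTA2, CNN1 and TNS3, had an unadjusted p under 0.05. A count of 1 of 10 is near that background, so it describes CNN1 and not the list. CNN1 was at 1.48, 1.95 and 1.71 CPM in DAF against 4.18, 3.88 and 4.51 CPM in iEF, so the groups did not overlap. The level was 2.45-fold lower (log2 fold change -1.29, SE 0.25, edgeR adjusted p = 0.00446). The call rested in part on replicate 1: without replicate 1 of all conditions the log2 fold change was -1.19 (edgeR adjusted p = 0.0946). Over 25 alternatives the value lay between -1.44 and -1.08 and the call was kept in 24.

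ACTA2 was higher in every DAF library. It stood at 103, 119 and 141 CPM in DAF, above all 3 iEF libraries, with a log2 fold change of 0.65 (SE 0.21, 95% interval 0.19 to 1.11), and missed the threshold (edgeR adjusted p = 0.0709). DESeq2 called it (log2 fold change 0.66, adjusted p = 0.0296), as did limma on the batch-adjusted counts (adjusted p = 0.0309), and over all alternatives it was called in 7 of 25 fits with an adjusted p between 4.39e-05 and 0.264. TNS3 was above iEF in all 3 DAF libraries as well, at 1.93, 2.69 and 6.00 CPM (log2 fold change 0.93, SE 0.37, edgeR adjusted p = 0.144). As in del22, its replicate 3 was the highest and differed from the lowest by 3.11-fold.

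The other 7 genes overlapped iEF in DAF cells. TAGLN was at 172, 137 and 192 CPM (log2 fold change 0.24, 95% interval -0.76 to 1.24) and TPM1 at 393, 404 and 657 CPM (-0.33, interval -1.04 to 0.38). CALD1 was at 580.2, 574 and 849 CPM (0.01, interval -0.46 to 0.47) and VCL at 868, 872 and 759 CPM (-0.06, interval -0.34 to 0.21). TPM2 was at 106, 98.2 and 123 CPM (-0.07, interval -0.48 to 0.34), ZYX at 43.4, 43.8 and 52.2 CPM (0.14, interval -0.16 to 0.45) and MYL9 at 0.562, 0.528 and 0.738 CPM (-0.47, interval -1.39 to 0.46). The median over the 10 genes was -0.03, and 2-fold changes lay outside the interval for VCL, CALD1, TPM2 and ZYX.

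Tested against each other, WT-EF and DAF differed in 9 of the 10 genes. All 9 were lower with the wild-type construct (background 16.1% of all genes tested), 6 of them by more than 2-fold (background 7.70%), and none was higher (background 12.4%). The gap was 17.6-fold for TNS3 (log2 fold change -4.14, SE 0.48, edgeR adjusted p = 4.94e-05), 4.87-fold for TAGLN (-2.28, SE 0.50, edgeR adjusted p = 0.00317) and 4.56-fold for MYL9 (-2.19, SE 0.54, edgeR adjusted p = 0.00674). It was 3.68-fold for TPM1 and 2.67-fold for ACTA2, and smallest for VCL and ZYX, with log2 fold changes of -0.79 and -0.71 (edgeR adjusted p = 0.00032 and 0.0018). CNN1 was the exception. Its log2 fold change was -0.07, with a 95% interval from -0.63 to 0.49 (edgeR adjusted p = 0.894), so a 2-fold difference in either direction lay outside it. Without WT-EF replicate 3 the count was again 9, but the log2 fold change was -1.64 for TAGLN, -1.57 for MYL9 and -3.45 for TNS3, each over 1.5-fold smaller. Without WT-EF replicate 1 that of MYL9 was -3.05, and without replicate 2 of all conditions MYL9 missed the threshold (edgeR adjusted p = 0.0745).

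DAF and del22 differ in the EWS domain and were compared directly. CNN1 was the gene called between them, lower in DAF by 2.44-fold (log2 fold change -1.29, SE 0.26, edgeR adjusted p = 0.0207, background 0.379% of all genes tested). The libraries did not overlap, at 1.48 to 1.95 CPM in DAF and 3.49 to 4.72 CPM in del22, but the call was lost in 7 of 25 alternatives, those without replicate 1 or 2 of all conditions, without del22 replicate 1 or 3, or without any one DAF library (edgeR adjusted p between 0.0921 and 0.418). ACTA2 was higher in DAF in all 3 libraries, with a log2 fold change of 0.86 (SE 0.22, edgeR adjusted p = 0.0709), and was called in 8 of 25 alternatives (background called higher 0.948%). MYL9 was lower in all 3 DAF libraries, at 16, 20 and 22 counts against 32, 32 and 23 counts, with a log2 fold change of -0.49 and an interval from -1.42 to 0.43 (edgeR adjusted p = 0.805). The other 7 genes overlapped.

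**Figure D4:**
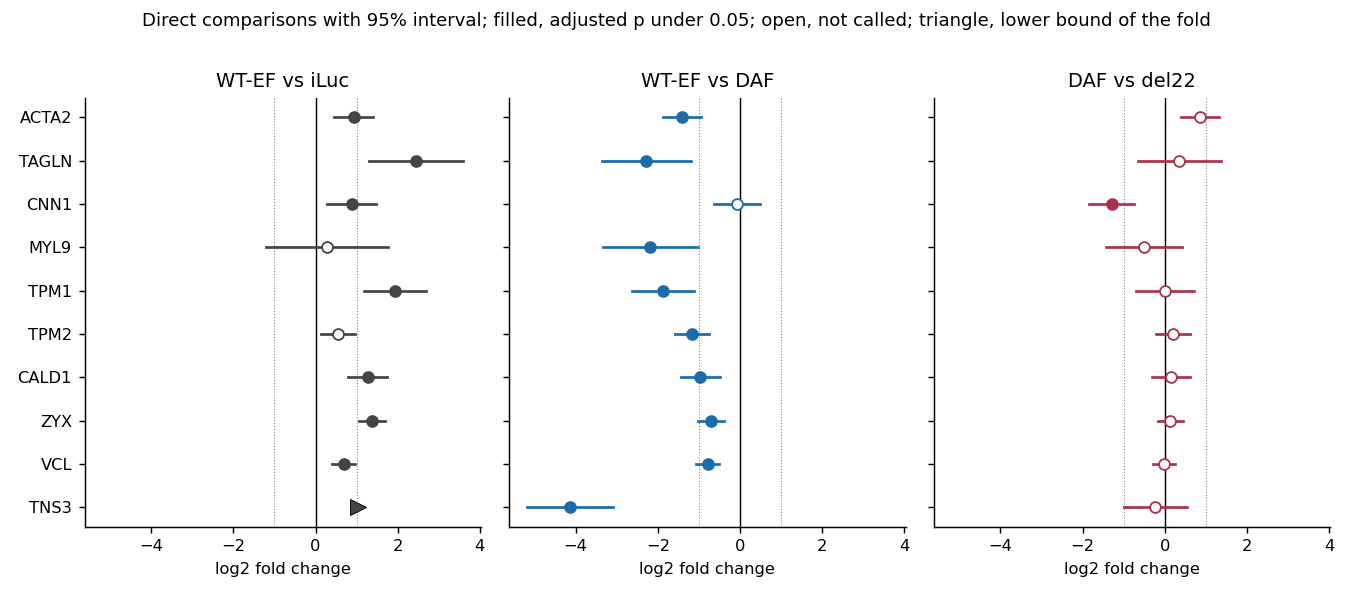
Log2 fold change of each gene in 3 direct comparisons (WT-EF against iLuc, WT-EF against DAF, and DAF against del22), with 95% intervals from the edgeR fit. Filled points have an adjusted p under 0.05, dotted lines mark a 2-fold change, and the triangle is the lower bound of the fold for TNS3 over iLuc. CNN1 is the open point in the comparison of WT-EF with DAF and the filled one in that of DAF with del22.

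Across the 15 libraries the genes followed a common profile with a few departures. The root mean square difference between a gene's centred log2 CPM and the average of the 10 was smallest for CALD1 (0.36), TPM2 (0.45) and ZYX (0.47), and largest for CNN1 (0.65), TAGLN (0.89) and TNS3 (1.31). CNN1 departed through DAF, where it was below its own mean in all 3 libraries, at -0.50, -0.11 and -0.30, while the other 9 genes were above theirs. TNS3 departed through its range, from -3.72 in iLuc to 3.10 in del22 replicate 3. Replicate 3 was the highest library for 7 of the 10 genes in iEF and for 8 in DAF, and the lowest for all 10 in WT-EF, so the numbered sets did not shift these genes one way in all conditions. Among 13169 other genes averaging at least 50 counts per library, the profiles nearest to the average were those of SEMA3C (0.16), FRMD6 (0.17), GPR176 (0.17), NIBAN2 (0.19) and EHD1 (0.19), which are closer to it than any of the 10. SEMA3C, a secreted semaphorin, was at 22.6, 15.8 and 20.2 CPM in iLuc, 99.5, 124 and 135 CPM in iEF, 59.3, 57.8 and 28.5 CPM in WT-EF, 105, 110.1 and 172 CPM in del22 and 122, 131 and 166 CPM in DAF. These likenesses are over 15 libraries of 1 cell line and are a description.

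Other genes of the contractile apparatus were read from lists of related function. Of 15 actin, myosin and actin-binding genes of non-muscle cells, 13 were lower in iLuc than in iEF (background 22.1%) and 1 was higher (background 19.5%). The median log2 fold change of the list was -1.20. MYH9, non-muscle myosin IIA, was at 585, 545 and 564 CPM in iLuc and at 2021, 1752 and 2261 CPM in iEF (log2 fold change -1.83, SE 0.19, edgeR adjusted p = 2.16e-06), and ACTN4, an actin crosslinker, by 1.77 on the log2 scale (edgeR adjusted p = 8.62e-07). MYH10, non-muscle myosin IIB, was higher in iLuc, at 301, 340.03 and 311 CPM against 186, 202 and 199.98 CPM in iEF (log2 fold change 0.69, SE 0.13, edgeR adjusted p = 0.000407). With WT-EF, 12 of the 15 were lower than in iEF (background 17.0%) and none higher (background 12.9%). With del22 CNN2 alone was lower (background 0.830%), and with DAF CNN2 and CNN3 were lower (background 6.19%). CNN2 and CNN3 are the other calponins. CNN2 was at 53.1, 63.0 and 67.3 CPM in iEF and at 33.8, 33.7 and 42.7 CPM in DAF, a log2 fold change of -0.74 (SE 0.13, edgeR adjusted p = 0.0025), and for CNN3 the value was -0.37 (SE 0.11, edgeR adjusted p = 0.037). The 3 calponin genes were thus each lower in DAF than in iEF, a pattern put together after their values were seen. CNN2 was also lower in del22, by 0.73 on the log2 scale (edgeR adjusted p = 0.0144). TAGLN, of the same protein family, was not called in DAF (log2 fold change 0.24, edgeR adjusted p = 0.831).

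Of 22 focal adhesion and stress fibre genes, 18 were lower in iLuc than in iEF (background 22.1%) and 1 was higher (background 19.5%), with a median log2 fold change of -1.28. In WT-EF 14 were lower (background 17.0%) and 1 higher (background 12.9%). PARVA, which links integrin-linked kinase to actin, was at 16.8, 9.26 and 15.6 CPM in iLuc, 152, 128 and 156 CPM in iEF and 74.0, 45.6 and 29.6 CPM in WT-EF (iLuc against iEF, log2 fold change -3.42, SE 0.24, edgeR adjusted p = 4.03e-08). PDLIM1, a LIM protein of stress fibres, had 6, 3 and 0 counts in iLuc and was at 4.23, 9.75 and 9.51 CPM in iEF, with a fitted log2 fold change of -6.39 (SE 0.73, edgeR adjusted p = 4.98e-06). The gene that rose was TNS1, another tensin, at 31.6, 31.7 and 31.0 CPM in iLuc against 16.9, 16.4 and 18.5 CPM in iEF (log2 fold change 0.86, SE 0.16, edgeR adjusted p = 0.000423). It was also higher in WT-EF (0.94, edgeR adjusted p = 0.000353) and in DAF (1.14, SE 0.16, edgeR adjusted p = 0.000392), where it was at 34.8, 39.1 and 40.2 CPM. In DAF 1 of the 22 was thus called higher (background 5.00%) and 1, TLN2, lower (-0.58, edgeR adjusted p = 0.0145, background 6.19%). Both counts are near the background. TNS1 was the list's gene called in DAF against del22 (0.93, SE 0.16, edgeR adjusted p = 0.00824, background called higher 0.948%). TNS1 and TNS3, 2 genes of the tensin family, thus moved in opposite directions in iLuc and in WT-EF, a pairing made after their values were seen. TNS2 moved with TNS3 and was lower in both (log2 fold changes -1.42 and -1.18, edgeR adjusted p = 2.96e-05 and 0.000249). TNS4 was called in neither.

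Of the 8 genes of SRF, its cofactors and LIM genes, 5 were lower in iLuc than in iEF (background 22.1%) and none higher (background 19.5%). In WT-EF 6 were lower (background 17.0%) and 1, CSRP1, was higher (background 12.9%). SRF itself was at 47.4, 38.3 and 47.8 CPM in iLuc and at 51.9, 49.8 and 49.8 CPM in iEF (log2 fold change -0.19, SE 0.11, edgeR adjusted p = 0.206), and it was lower in WT-EF by 0.42 on the log2 scale (edgeR adjusted p = 0.0112). MRTFA, an actin-sensing SRF cofactor, was at 15.04, 14.6 and 15.04 CPM in iLuc against 25.1, 22.7 and 23.1 CPM in iEF (log2 fold change -0.67, SE 0.09, edgeR adjusted p = 3.21e-05), while MRTFB had a log2 fold change of 0.01 (SE 0.14, edgeR adjusted p = 0.966). MYOCD, myocardin, the cofactor typical of cardiac and smooth muscle, had 0 counts in every iLuc library and 44, 23 and 42 counts in iEF, which puts iEF at least 11.9-fold above the floor. Its counts were 1, 0 and 0 in WT-EF, 16, 6 and 6 in del22 and 5, 0 and 5 in DAF, and it was called lower in DAF than in iEF (log2 fold change -3.32, SE 0.56, edgeR adjusted p = 0.0024) but not in del22 (-1.96, SE 0.48, edgeR adjusted p = 0.074). It was the gene of this list called in DAF, 1 of 8 lower (background 6.19% of all genes tested) and none higher (background 5.00%). Between DAF and del22 MYOCD was not called (edgeR adjusted p = 0.509). TGFB1I1, the LIM protein Hic-5, was at 1.16, 0.561 and 0.955 CPM in iLuc and at 19.6, 16.0 and 20.6 CPM in iEF (log2 fold change -4.42, SE 0.26, edgeR adjusted p = 1.06e-08), and FHL2 at 3.39, 2.38 and 3.70 CPM against 66.8, 36.1 and 75.1 CPM (-4.22, SE 0.28, edgeR adjusted p = 2.79e-08).

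Of 15 genes that control myosin light chain phosphorylation and actin turnover, 10 were lower (background 22.1%) and 1 was higher (background 19.5%) in iLuc than in iEF. Their median log2 fold change was -0.56. In DAF LIMK2 alone was called, higher by 0.46 on the log2 scale (edgeR adjusted p = 0.0245). That is 1 of 15, near the background of 5.00% of all genes tested called higher. MYLK, the kinase that phosphorylates MYL9, was at 10.8, 13.2 and 15.3 CPM in iLuc and at 73.5, 106 and 131 CPM in iEF (log2 fold change -2.96, SE 0.23, edgeR adjusted p = 1.17e-07). RHOC was at 17.5, 16.9 and 16.7 CPM in iLuc and at 119, 94.4 and 102 CPM in iEF (log2 fold change -2.61, SE 0.17, edgeR adjusted p = 1.79e-08). PPP1R12B, a targeting subunit of myosin phosphatase, was the gene called higher, by 0.37 on the log2 scale (SE 0.10, edgeR adjusted p = 0.00598).

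**Figure D5:**
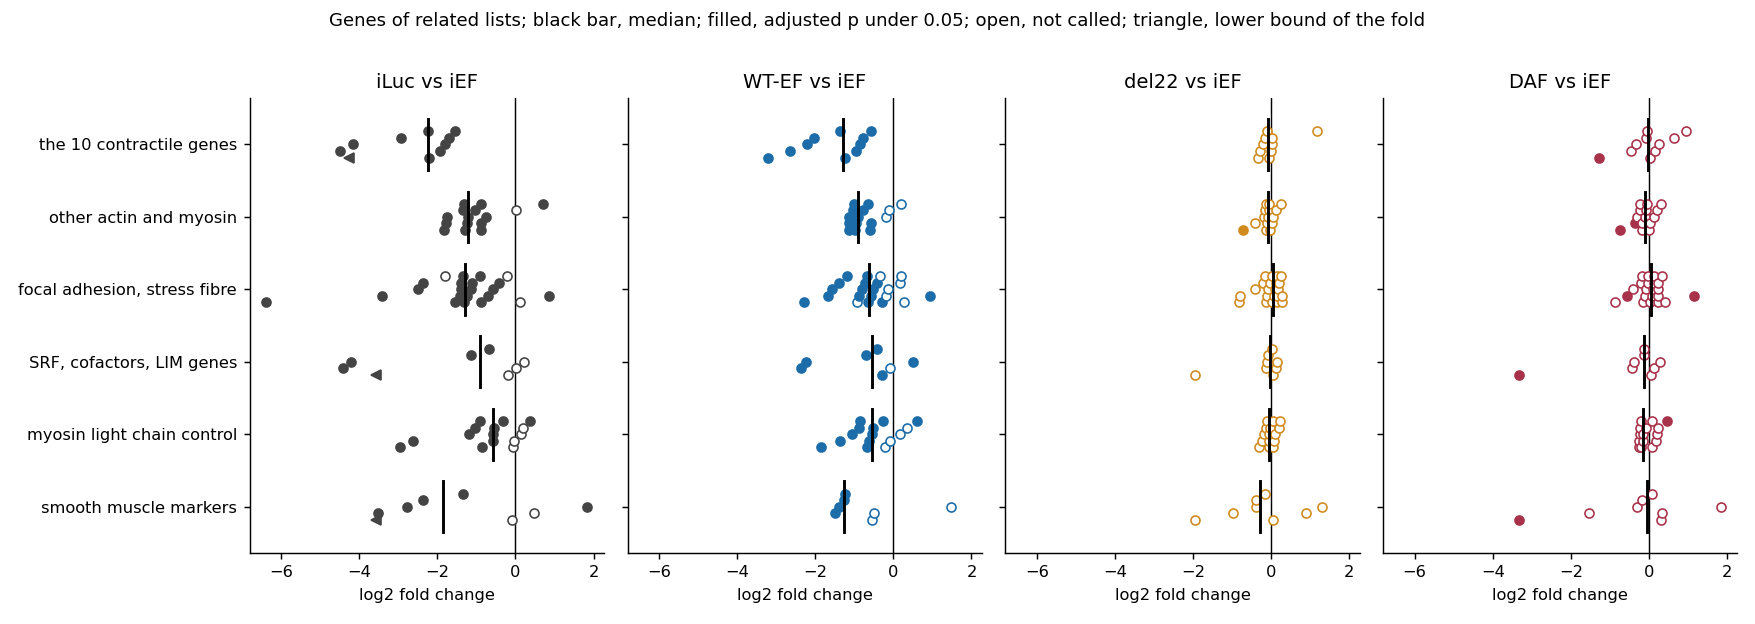
Log2 fold change from iEF for the 10 contractile genes and 5 related lists in iLuc, WT-EF, del22 and DAF. Each point is 1 gene, filled where the adjusted p is under 0.05, black bars are medians, and triangles are lower bounds of the fold for TNS3 and MYOCD, which had no count in iLuc (MYOCD in WT-EF, with 1 count in all, is not drawn). The medians lie below 0 for every list in iLuc and WT-EF and within 0.3 of 0 in del22 and DAF.

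Markers of differentiated smooth muscle were mostly scarce. MYH11, smooth muscle myosin heavy chain, was at 0.35 to 1.26 CPM over all 15 libraries, LMOD1 at 0.12 to 0.97 CPM and KCNMB1 at 0.026 to 0.42 CPM. Of the 8 markers, which include MYOCD, 5 were lower (background 22.1%) and 1, KCNMB1, was higher (background 19.5%) in iLuc than in iEF. SMTN, smoothelin, was at 16.5 to 22.5 CPM in iLuc and at 40.9 CPM or more in iEF (log2 fold change -1.34, SE 0.16, edgeR adjusted p = 9.37e-06), and SYNPO2, an actin bundler of smooth and striated muscle, at 0.672, 0.898 and 0.716 CPM against 4.52, 6.78 and 4.57 CPM (-2.78, SE 0.22, edgeR adjusted p = 1.67e-07). ACTG2, the enteric smooth muscle actin, and DES, desmin, were lower in iLuc at levels of 3.32 CPM or less in any library. Of 9 skeletal and cardiac muscle markers, 5 passed the filter on low counts, and the regulators MYOD1, MYOG and MYF5 had at most 3 counts in any library. Of the 5, 1 was called higher and 1 lower in iLuc than in iEF, each near its background (19.5% and 22.1%). TNNT2 was higher (log2 fold change 4.08, edgeR adjusted p = 9.87e-05), and ACTC1, with no count in iLuc, was lower (edgeR adjusted p = 0.000124). The summed level of the 9 was 3.22 to 5.33 CPM over the 15 libraries, against 480.7 to 2789 CPM for the 10 contractile genes. MYH3, at 2.70 to 4.54 CPM, made up most of that sum, which therefore does not show the changes of TNNT2 and ACTC1.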

How the data were processed

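RNA-seq libraries of A673 cells were analysed, 3 for each of iLuc, iEF, WT-EF, del22 and DAF. Condition and replicate number came from the sample labels. Reads were mapped by the authors with STAR (2.5.1b in the submitters' processing notes) against hg19, and read pairs were counted per gene with htseq-count in intersection-strict mode. The strand setting and annotation version are not given in the sources used here. The counts were deposited raw, as integers. Beside them the authors gave other values, counts adjusted with ComBat for the replicate sets (27002 genes), which were used only in an alternative, and a table of their own DESeq2 fold changes and p-values, which was not used. Neither were 3 columns that belong to no labelled sample.

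In R 4.3.3, edgeR 4.0.16 was run on the 28793 genes averaging at least 1 count per library, with TMM scaling and a single quasi-likelihood fit of the 15 libraries on condition plus replicate number. The study's methods treat each replicate set as a batch, and the number was therefore kept as a block. Between libraries of the same number, deviations from the condition mean had a median r of 0.185 over 30 pairs (21 of them over 0.1), against -0.0842 over 60 pairs of different numbers, across 13178 genes that are not independent. Deviations within a condition cancel out, so the value for different numbers is tied to the other and is no separate support for the block. Each of the 7 comparisons had its own Benjamini-Hochberg adjustment, and genes with an adjusted p under 0.05 were called. The fits were tested on simulated data, with a spread that was set and not taken from these libraries. At a simulated 1.5-fold change, 10 of 60 changed genes were called in iLuc against iEF and 4 of 56 in DAF against iEF. At 2-fold, 44 of 74 and 50 of 76 were called, and at 4-fold 66 of 66 and 68 of 68. A gene that was not called is thus not shown to be unchanged. Total counts ran from 28659475 to 41859880 (median 32943231), and chi-square per gene between replicates was 12.9 to 83.2 over 15 pairs, so no libraries were merged. A floor of 3 counts per library was used for genes with no counts in a condition, and floors cover counting error only. Profiles used log2 CPM with a prior count of 2. Positions and exon lengths came from GENCODE v44 lifted to GRCh37, and promoter windows from RefSeq.

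The 10 genes and all lists were chosen with earlier results of these data known. By rule, the text names the 10 genes, FLI1, SRF, MRTFA, MRTFB, MYOCD, up to 2 genes in each direction per other list (largest changes in iLuc, at least 50 counts on average) and the 5 genes with the most similar profile. CNN2, CNN3, LIMK2, CSRP1, TLN2, TNS2, TNS4, the low smooth and striated muscle markers and the Ewing sarcoma markers are named after their values were seen. Alternatives were DESeq2 1.42.0 and its size factors, other filters on low counts, no replicate block, the 6 libraries of a comparison alone, limma 3.58.1 on the ComBat-adjusted counts, a 2-fold cutoff, and fits without each replicate set and each library.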

Additional observations from a re-analysis of the deposited data

How the results depend on the processing

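Counts of the 10 genes were recomputed under 26 alternatives. The 10 lower in iLuc than in iEF were called in each of them. For WT-EF below iEF the count was 10, 6 with a 2-fold cutoff, and 7 to 10 without single libraries or replicate sets. For del22 against iEF it was 0 higher and 0 lower, 1 higher with no filter on low counts (TNS3, edgeR adjusted p = 0.00265), and 0 to 1 in each direction without single libraries or sets. For DAF above iEF it was 0, 1 with DESeq2, 2 with no filter, 2 with only the 6 libraries compared, 1 with limma on the ComBat-adjusted counts, and 0 to 2 without libraries or sets. For DAF below iEF it was 1, 2 with only the 6 libraries compared, and 0 to 2 without libraries or sets. For WT-EF above iLuc it was 8, 5 with a 2-fold cutoff, 9 with DESeq2, its size factors or either other filter (TPM2 gained), 7 with only the 6 libraries compared (CNN1 lost), 8 with limma (TPM2 gained, TNS3 lost), and 1 to 9 without libraries or sets. For WT-EF below DAF it was 9, 6 with a 2-fold cutoff, and 8 to 9 without libraries or sets. For DAF above del22 it was 0, 1 with DESeq2, 1 with no filter, 4 with only the 6 libraries compared (ACTA2, TAGLN, TPM2 and CALD1), 1 with limma, and 0 to 1 without libraries or sets, and for DAF below del22 it was 1 and 0 to 1. The cause of these changes was not tested. No called value changed sign.

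Without the replicate block the counts were 10 for iLuc below iEF, 10 for WT-EF below iEF, 0 for del22, 1 for DAF below iEF, 8 for WT-EF above iLuc, 9 for WT-EF below DAF and 1 for DAF below del22, as with it. MYL9, CNN1 and TNS3 rest on few reads, and differences in MYL9 of the width of its intervals were not detectable at this depth.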
